A study of Caenorhabditis elegans with 2 samples.

Results

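The cytosolic ribosomal protein genes were taken as the protein-coding genes named rpl- or rps- with a number, plus rla-0, rla-1 and rla-2. These were 81 of the 19973 protein-coding genes on the nuclear chromosomes of Caenorhabditis elegans. By name alone, 50 were counted for the large ribosomal subunit and 31 for the small one. Whether each product is part of the mature ribosome was not checked. The rule used names only and no measured value, but it was chosen with earlier results of these data known. The ubiquitin fusion genes that carry other names were not among them. Gene lengths ran from 276 to 1734 bp, with a median of 754 bp against 2027 bp over all protein-coding genes.

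Occupancy of these genes by SNPC-1.2 was read from peak lists of chromatin immunoprecipitation with sequencing (ChIP-seq) against GFP. The animals carried an insertion at snpc-1.2 made by CRISPR (allele st12251, chromosome III, strain RW12251), so that the protein bore TY1, EGFP and 3xFLAG tags. Larvae were synchronised as starved L1 after bleaching and taken whole as L4 at 48 hours, and chromatin was sheared by sonication to 200 to 800 bp. There were 2 biological replicates of this 1 group and no second genotype or treatment, so no contrast between conditions exists. Whole animals mix all tissues, and in which cells a peak arose cannot be told apart. The labels name a control experiment, whose values were not analysed here.

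Ribosomal proteins are the protein part of the cytosolic ribosome, and their genes are among the most transcribed of RNA polymerase II in growing animals. SNPC-1.2 is a homologue of human SNAPC1, part of the complex SNAPc, which in animals binds a promoter element of small nuclear RNA genes and serves both RNA polymerase II and RNA polymerase III there. Many ribosomal protein genes of animals carry a snoRNA gene in an intron, and many C. elegans transcripts, those of ribosomal proteins among them, receive a spliced leader at the 5' end, so that an annotated 5' end can lie inside the region first transcribed.

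In the list of the whole series, which holds 2829 nuclear peaks, 63 of the 81 members (77.8%, exact 95% interval 67.2 to 86.3) had a peak summit inside the gene, within 500 bp before its 5' end or within 500 bp past its 3' end. The same rule called 9.71% of all protein-coding genes. Past the 3' end lay a summit for 54 members (66.7%, 55.3 to 76.8, against 3.22%), and before the 5' end for 31 (38.3%, 27.7 to 49.7, against 3.26%). Inside the gene lay a summit for 15 (18.5%, 10.8 to 28.7, against 4.83%). Both sides were called at 24 members, against 0.526% of all protein-coding genes. These 24 made up 22.9% of the 105 genes called on both sides, while members are 0.406% of protein-coding genes. Intervals here and throughout cover the counting of genes only, and read depth is unknown.

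**Figure D1:**
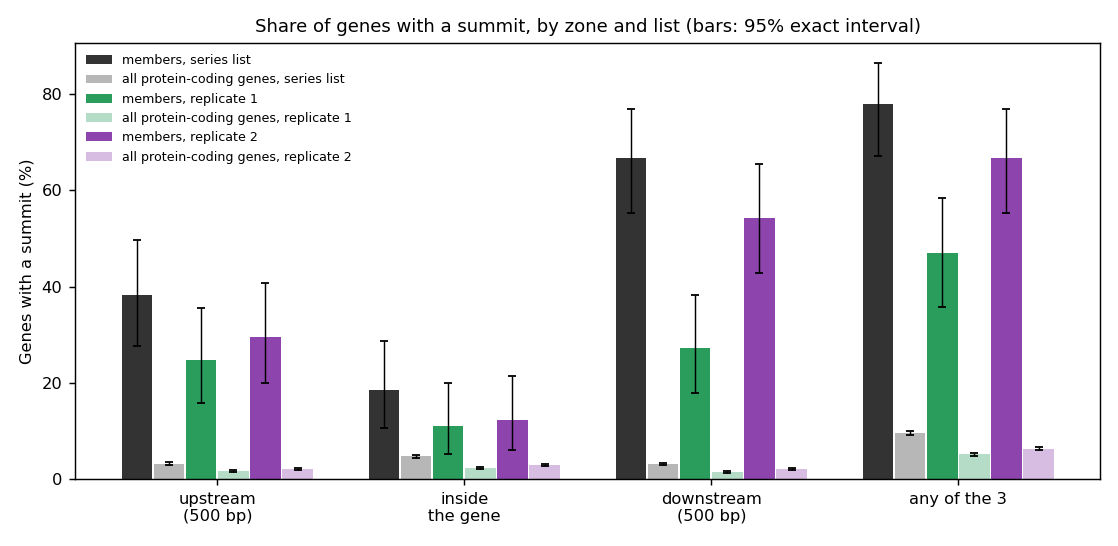
Share of genes with a summit (y axis, percent) in 3 zones and in any of them (x axis), for the 81 members and for all 19973 protein-coding genes, in the list of the whole series and in each replicate's own list. Error lines are exact 95% intervals; the member bars stand above those of all genes in each zone and list, and the downstream bar falls from 66.7% in the series list to 27.2% in replicate 1.

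The sequences under the members' strongest peaks are shown because some words that recur under the upstream summits were rare under the downstream ones. Each run is 121 bases of the RefSeq genome of build WBcel235 (ce11), centred on the summit and written 5' to 3' on the strand of the gene. The upstream runs are the 5 highest and the downstream runs the 3 highest by signal on chromosomes III to V that touch no annotated exon. Capitals mark GGTCTCGC, TTTAGGCC, ACGAGTGT and its part GAGTGT, each on either strand, which were picked after the sequences had been seen. TTTAGGCC is in none of these runs, and GGTCTCGC and ACGAGTGT are in that of rpl-29 only.
rpl-3, upstream, chrIII:3867518-3867638, + strand: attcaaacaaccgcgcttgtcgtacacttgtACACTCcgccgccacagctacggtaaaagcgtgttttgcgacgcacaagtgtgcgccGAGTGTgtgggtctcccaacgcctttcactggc
rpl-29, upstream, chrIV:13881901-13882021, + strand: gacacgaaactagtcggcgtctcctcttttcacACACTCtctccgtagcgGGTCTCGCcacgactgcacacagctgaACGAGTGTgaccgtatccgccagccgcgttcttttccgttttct
rpl-20, upstream, chrIV:4750006-4750126, - strand: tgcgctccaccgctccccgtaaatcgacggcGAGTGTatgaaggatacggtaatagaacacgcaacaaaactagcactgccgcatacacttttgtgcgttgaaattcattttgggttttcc
rpl-35, upstream, chrIII:7854629-7854749, + strand: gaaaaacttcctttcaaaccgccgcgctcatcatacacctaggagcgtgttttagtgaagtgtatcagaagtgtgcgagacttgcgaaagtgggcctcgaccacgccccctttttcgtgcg
rpl-15, upstream, chrIV:654865-654985, - strand: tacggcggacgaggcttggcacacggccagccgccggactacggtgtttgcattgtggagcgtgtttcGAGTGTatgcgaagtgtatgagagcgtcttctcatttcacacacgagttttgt
rps-25, downstream, chrIV:5946908-5947028, - strand: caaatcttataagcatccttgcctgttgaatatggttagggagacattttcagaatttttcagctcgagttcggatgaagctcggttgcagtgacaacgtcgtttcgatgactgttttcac
rps-27, downstream, chrV:103190-103310, - strand: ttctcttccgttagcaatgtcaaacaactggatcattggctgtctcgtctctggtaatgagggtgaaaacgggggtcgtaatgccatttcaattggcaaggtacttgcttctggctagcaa
rpl-11.1, downstream, chrV:3585155-3585275, - strand: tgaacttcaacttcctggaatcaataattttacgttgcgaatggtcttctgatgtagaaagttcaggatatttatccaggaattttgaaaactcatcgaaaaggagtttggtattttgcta
GAGTGT stood in 4 of these 5 upstream runs and in none of the 3 downstream runs.

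Around the 30 distinct upstream summits of members, GAGTGT was in 12 windows of 121 bases (40.0%), against 8.78% of the windows at other protein-coding genes' upstream peaks and 6.75% of those at all nuclear peaks of the list. GGTCTCGC was in 9 of the 30 (30%), against 7.19% and 3.46%. Around the 54 downstream summits the same words were in 3 and in 1 window. The word matches were not limited to occupied members. In the 500 bp before the 5' end, GGTCTCGC was at 9 of the 31 members with an upstream summit and at 14 of the 50 without one, while 2.37% of all protein-coding genes held it. TTTAGGCC was at 11 of 31 and at 11 of 50, against 1.65%, and ACGAGTGT at 5 of 31 and at 8 of 50, against 0.756%. At least 1 of these 3 words of 8 bases was at 44 of 81 members (54.3%) and at 4.49% of all protein-coding genes. The shorter GAGTGT was there at 13 of 31 and at 12 of 50, 30.9% of members against 15.7% of all protein-coding genes. From 250 bp before to 50 bp after the 5' end GAGTGT was at 12.3% and 10%. In the 500 bp past the 3' end it was at 13.6% and 13.4%. Where a member had both GGTCTCGC and an upstream summit, the nearest copy of that word lay a median of 25 bp from the summit, and all 9 lay within 75 bp. For ACGAGTGT the median was 21 bp, with 5 of 5 within 75 bp. For TTTAGGCC it was 69 bp, with 6 of 11 within 75 bp, and that word was in 2 of the 30 upstream summit windows. These words were found on these same genes, so their share is a description with no test.

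Words chosen for their known roles gave other counts. CTGTTTCA, the core of the motif upstream of piRNA genes, was in none of the members' 30 upstream and 54 downstream summit windows. It was in 0.798% of those at other protein-coding genes' upstream peaks and 5.20% of those at all nuclear peaks. GTTCNANNC, the B box of tRNA genes, was in 1 of 30 and 2 of 54, against 10.6% and 17.5%. In the 250 bp before to 50 bp after the 5' end, CTGTTTCA was at 2.47% of members and 2.32% of all protein-coding genes, and GTTCNANNC at 6.17% and 8.74%. TATAAA on either strand was at 27.2% of members and 37.9% of all, but in the 500 bp before the 5' end at 54.3% and 54.0%. In those 500 bp it was at 12 of the 31 members with an upstream summit and at 32 of the 50 without one. TATAAA was in none of the 30 upstream and in 5 of the 54 downstream summit windows. It was in 5.59% of those at other protein-coding genes' upstream peaks and 8.24% of those at all nuclear peaks. In the 500 bp past the 3' end CTGTTTCA was at 8.64% of members and 4.48% of all, and GTTCNANNC at 28.4% and 16.9%, with 11.1% and 33.3% at the 54 members with a downstream summit. TATAAA was there at 34.6% of members and 49.3% of all. TTTTCAG, the splice acceptor word, was on the gene strand at 45.7% of members and 23.8% of all around the 5' end, and at 24.7% and 24.8% past the 3' end. A match here is a run of letters, not a site, and a missing match says only that these letters are not in that window.

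Before the 5' end the summits kept a distance. The 31 upstream summits lay at positions from -462 to -17 bp relative to the 5' end, with a median of -287 bp and quartiles of -351.5 and -249.5 bp, and 23 of them lay 250 bp or more away. For all protein-coding genes with an upstream summit the median was -227 bp. The rule of a summit within 250 bp of the 5' end therefore called few members, 12 of 81 (14.8%, 7.90 to 24.4) against 2.48% of all protein-coding genes. A window of 100 bp called 4 against 0.861%, and one of 500 bp called 37 against 4.26%, of which the nearest summit had a median position of -272 bp. The median over all protein-coding genes within 500 bp was -155 bp.

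**Figure D2:**
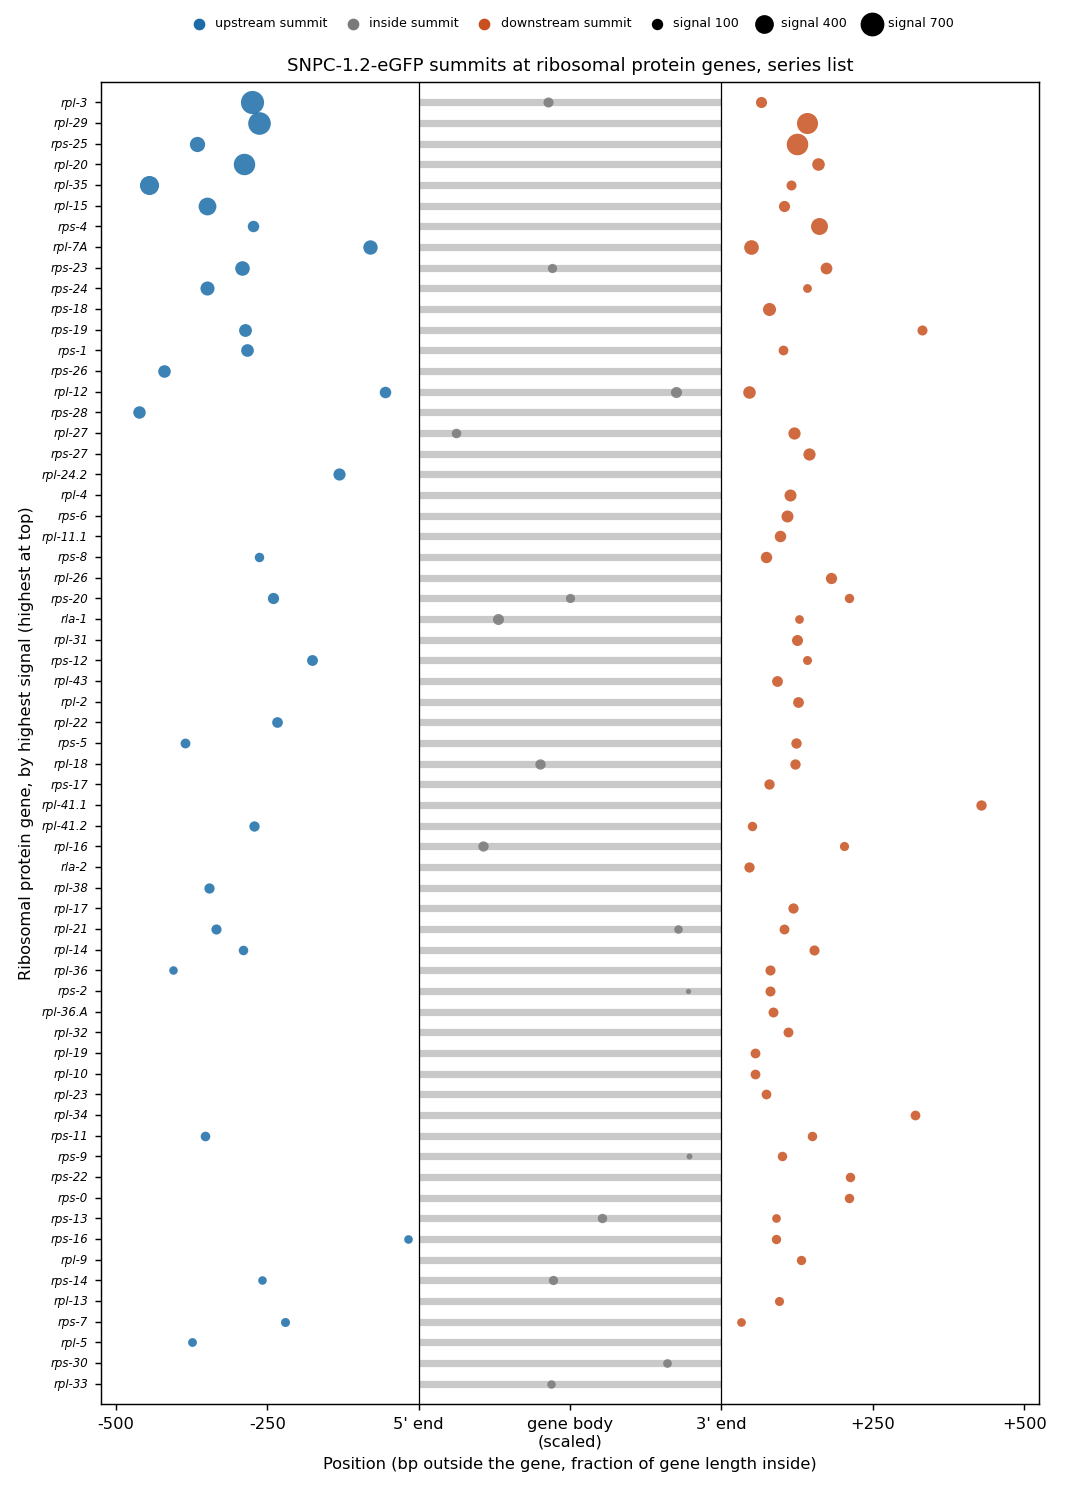
Summits of the series list at the 63 members called, 1 row a gene, ordered by the highest signal. The x axis gives bp before the 5' end and past the 3' end, and the fraction of the gene's length inside; circle area grows with signal. Upstream circles gather 250 to 500 bp before the gene and downstream circles mostly within 250 bp past it.

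Among large subunit genes the highest upstream signal was at rpl-3, whose product lines the peptidyl transferase centre. Its summit at base 3867578 of chromosome III, 276 bp before the gene at 3867854 to 3869587, had a signal of 783 in the series list, rank 50 of the 2829 nuclear peaks. The replicates' own lists gave 358 and 430 there. The same gene had weaker summits inside an intron, at 116, and 66 bp past its 3' end, at 150. The signal is the deposited value of the peak with no stated scale, so it is read within 1 list only.

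Upstream of rpl-29, for a short protein of the large subunit, the signal was 745 in the series list, 313 in replicate 1 and 434 in replicate 2, at 264 bp before the gene on chromosome IV. A further summit 141 bp past its 3' end read 640, 233 and 368 in the same order, and it lay 25 bp from the 5' end of thoc-7 on the same strand. Upstream of rpl-20 the values were 665, 273 and 402, with the opposite-strand gene Y17G9B.5 starting 174 bp from the summit, nearer than rpl-20 itself at 288 bp. All 3 of these upstream peaks were in every thresholded list and ranked in the top 67 of the series list.

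At rpl-35, whose product sits at the exit tunnel for the new chain, the upstream signal was 520 in the series list, 242 in replicate 1 and 271 in replicate 2, at 445 bp before the gene on chromosome III. At rpl-15 it was 446, 247 and 205, at 349 bp before the gene. At rpl-7A the summit lay nearer, 80 bp before the 5' end, with 278, 121 and 157, and a downstream summit of 290 lay 49 bp past the 3' end. No other annotated 5' end lay within 250 bp of the rpl-35 and rpl-15 summits, whereas set-21 started 174 bp from that of rpl-7A.

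The stalk genes differed among themselves. The stalk is the flexible arm of the large subunit that recruits translation factors. rla-0, for the protein at its base, had no summit in any zone of the series list, and replicate 2 alone called its downstream zone, at 48.7. rla-1 had a summit in a coding exon 128 bp past the 5' end with a signal of 148 in the series list, 50.9 in replicate 1 and 96.5 in replicate 2, and a downstream one of 76.5 in the series list alone. rla-2 had only a downstream summit, at 122 in the series list, 55.3 in replicate 1 and 61.1 in replicate 2, which lay 33 bp from the 5' end of agt-1. rpl-12, whose product binds the stalk base, was called in all 3 zones, with 164 upstream, 149 inside and 201 downstream.

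Among small subunit genes rps-25, needed for some forms of internal initiation in yeast and human cells, had the highest value. Its downstream summit read 672 in the series list, 267 in replicate 1 and 376 in replicate 2, at 125 bp past the 3' end, and its upstream one 316, 142 and 199. rps-4 likewise read higher downstream, at 402, 145 and 255, than upstream, at 162, 82.0 and 79.1. rps-23, for a protein of the decoding centre, read higher upstream, at 287, 143 and 149. There its downstream summit read 172 in the series list and 104 in replicate 2, with no call in replicate 1. rps-24 had 264, 133 and 115 upstream, at 350 bp before the gene, and rps-19 had 214, 107 and 101, at 287 bp, with hsr-9 starting 158 bp from that summit on the opposite strand. Of the 24 members called on both sides, 15 had the higher signal upstream. In the replicates' own lists it was 2 of 6 in replicate 1 and 13 of 17 in replicate 2, and in their ranked lists 25 of 59 and 26 of 56, so neither side read higher throughout.

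Both subunits' genes were called. Upstream summits were at 15 of 50 large subunit genes (30%, 17.9 to 44.6) and 16 of 31 small subunit genes (51.6%, 33.1 to 69.8), and downstream ones at 32 (64.0%, 49.2 to 77.1) and 22 (71.0%, 52.0 to 85.8). Within 250 bp of the 5' end they were at 8 (16.0%, 7.17 to 29.1) and 4 (12.9%, 3.63 to 29.8). The intervals overlapped in each case, and no test of this split was run.

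The 12 members called within 250 bp of the 5' end were not those with the strongest peaks, and only rpl-7A was also among the 10 with the highest signal. Upstream lay the summits of rpl-24.2 (132 bp, signal 188), rpl-12 (55 bp, 164), rps-20 (241 bp, 154), rps-12 (176 bp, 142), rpl-22 (234 bp, 136), rps-7 (221 bp, 85.8), rps-16 (17 bp, 74.3), rpl-36 (206 bp, 13.9) and rpl-7A. Inside the gene lay those of rla-1, rpl-16 (162 bp, 123) and rpl-27 (69 bp, 101). At rpl-36 the stronger upstream peak, 72.6 at 405 bp, was shared with rps-14, which starts on the other strand.

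By each replicate's own list, 6 members were called within 250 bp in replicate 1, against 1.22% of all protein-coding genes, and 8 in replicate 2, against 1.54%. In both lists were 4, against 0.846%, namely rla-1, rpl-24.2, rpl-7A and rpl-12. In replicate 1 alone were rpl-27 and rpl-22, and in replicate 2 alone rpl-41.2, rpl-16, rps-12 and rps-16. The summit of rpl-41.2 lay 240 bp away in replicate 2 and 301 bp away in replicate 1, so the edge of the window parted them. The summit of rpl-16 was at -5 bp in replicate 2 and at 162 bp in the series list.

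Past the 3' end the summits were packed in a narrow band. The 54 downstream summits lay from 33 to 428 bp past the annotated end with a median of 114.5 bp and quartiles at 82 and 143.5 bp, and 38 of them lay 50 to 150 bp past it. Over all protein-coding genes with a downstream summit the median was 180.5 bp and the quartiles 109.75 and 301.5 bp. Per kb of zone, members had 1.36 summits downstream, 0.840 upstream and 0.233 inside the gene, while all protein-coding genes had 0.0669, 0.0671 and 0.0206. The downstream summits' median signal in the series list was 116 against 113 over all protein-coding genes, and the upstream ones' 162 against 124. The downstream summits of members were thus nearer to the gene end, at about the same signal among summits that passed the list's threshold. In the ranked list of the whole series, which keeps weaker calls, the members' downstream median was 106.5. Over all protein-coding genes with a downstream call there it was 32.6.

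**Figure D3:**
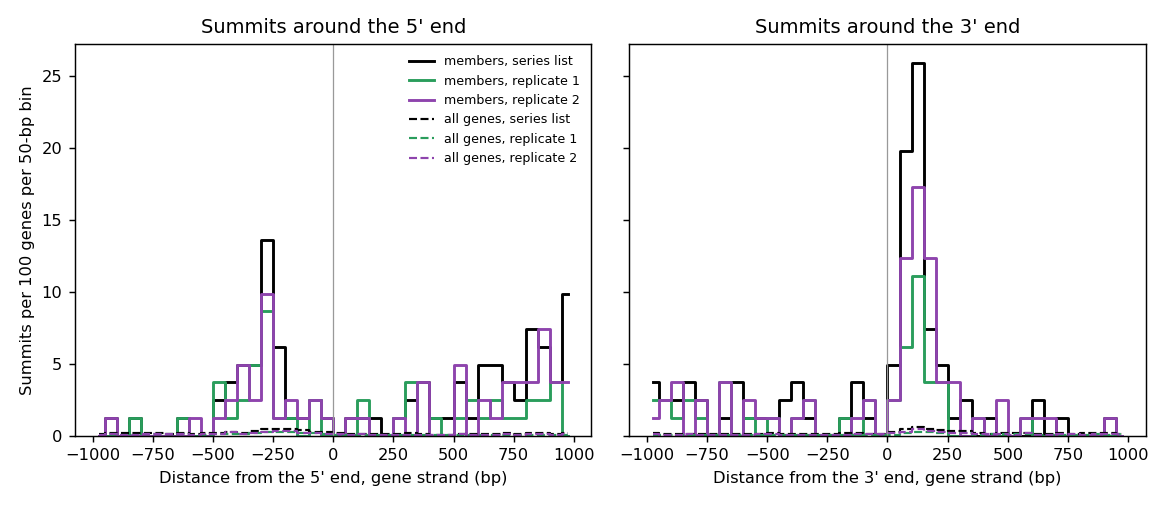
Number of summits per 100 genes in bins of 50 bp (y axis) by distance from the 5' end (left) and the 3' end (right) along the gene strand, for members (solid) and all protein-coding genes (dashed), in the series list and each replicate's own list. Members show a crest 250 to 300 bp before the 5' end and a higher one 50 to 150 bp past the 3' end; in both, replicate 2 stands at or above replicate 1.

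Part of the downstream summits lay beside a neighbour's start. For 23 of 54 the 5' end of another protein-coding gene on the same strand was within 250 bp, for example pigk-1 past rps-5 (15 bp from a summit of 126), swp-1 past rpl-23 (74 bp from 106) and egl-30 past rpl-27 (103 bp from 189). For 30 of 54 no other annotated 5' end was within 250 bp, and for 16 none within 1000 bp, among them rps-17, with 125 at 78 bp past its end, rpl-13, with 86.6, and rps-6, with 181. The share called downstream was 71.0% (52.0 to 85.8) for the 31 members with a same-strand start within 500 bp past their end and 64.0% (49.2 to 77.1) for the 50 without. For all protein-coding genes the shares were 4.44% and 2.96%. In replicate 1 the members' shares were 29.0% and 26.0%, against 61 of 3601 and 253 of 16372 protein-coding genes. In replicate 2 the members' shares were 71.0% and 44.0%, against 103 of 3601 and 335 of 16372 protein-coding genes. The share of all protein-coding genes was thus also higher with such a start in each replicate's own list. Whether a summit between close genes belongs to the member's end or to the neighbour's start cannot be told apart.

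Upstream too, 8 of 31 summits had the 5' end of an opposite-strand protein-coding gene within 250 bp, and 11 lay nearer to another gene's 5' end than to the member's. At 21 of the 31 no other annotated 5' end lay within 250 bp. Only 1 upstream summit, at rps-26, had the 5' end of a tRNA, snRNA, snoRNA or spliced leader gene within 250 bp, at 97 bp, and no downstream summit had one. Without the members that have such a gene within 500 bp of their own 5' end, 45 of 68 (66.2%, 53.7 to 77.2) had a downstream and 27 of 68 (39.7%, 28.0 to 52.3) an upstream summit.

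Hosts of nested snoRNA genes were set beside the other members. Of the 81 members 13 have at least 1 snoRNA gene nested on the same strand, 19 such genes in all, and 9 of these 13 hosts (69.2%, 38.6 to 90.9) had a downstream and 5 (38.5%, 13.9 to 68.4) an upstream summit. Among the 68 members without one the shares were 66.2% and 38.2%. At a global IDR, the irreproducible discovery rate, of at most 0.001 the hosts' shares were 53.8% (25.1 to 80.8) and 38.5% (13.9 to 68.4), and those of the others 33.8% (22.8 to 46.3) and 23.5% (14.1 to 35.4). Of all 19973 protein-coding genes 300 had a downstream and 356 an upstream summit at that limit. The intervals overlapped in each case, and no test of the difference was run. Only 2 of the 19 nested snoRNA genes had a summit within 250 bp of their own 5' end, while 26.9% of all 346 annotated snoRNA genes did. These 2 were C16A3.11 in rps-13 and F28D1.13 in rps-23. The summit at C16A3.11 lay inside the snoRNA gene, 96 bp past its 5' end, at a signal of 95.1. That at F28D1.13 lay 64 bp before its 5' end, at 92.0. Within 250 bp of the host's 5' end only rps-12 and rpl-7A were called.

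Inside genes the members' summits in the series list were fewer and weaker than those outside. Per kb of gene there were 0.233, against 0.0206 over all protein-coding genes. Of the 15 summits 12 lay in a coding exon, 2 in an intron and 1 in a UTR exon, and their median signal was 92.7 against 104 over all protein-coding genes with a summit inside. None of them was among the 500 highest peaks. The values for rps-2 and rps-9, 3.21 and 14.7, belonged to peaks that overlapped the genes' downstream peaks, whose signals were 115 and 97.8. At rpl-21, too, the inside peak, at 72.4, overlapped the downstream peak, at 109.6. The replicates parted here: 9 members were called in replicate 1, against 2.38%, 10 in replicate 2, against 2.94%, and 5 in both, against 1.69%.

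Outside the gene, too, the replicates' own lists gave lower counts than the series list. Upstream, 20 members were called in replicate 1 (24.7%, 15.8 to 35.5, against 1.80%), 24 in replicate 2 (29.6%, 20.0 to 40.8, against 2.18%) and 18 in both, against 1.44%. Downstream, the counts were 22 in replicate 1 (27.2%, 17.9 to 38.2, against 1.57%) and 44 in replicate 2 (54.3%, 42.9 to 65.4, against 2.19%), with 18 in both, against 1.17%. The downstream count thus differed 2-fold between replicates, with 26 members called in replicate 2 only and 4 in replicate 1 only. Of the series list's calls, 6 of 31 upstream, 8 of 54 downstream and 6 of 15 inside were in neither replicate's own list. In any zone there were 38 in replicate 1, against 5.26%, and 54 in replicate 2, against 6.37%. The 2 lists also differ in length, at 1411 and 1737 nuclear peaks. Where both lists held an upstream summit, the pair lay a median of 7 bp apart, and for downstream summits 39.5 bp.

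The ranked lists, which keep weaker calls, show the values behind these counts. Upstream zones of 53 members held a call in both replicates' ranked lists, against 16.7% of all protein-coding genes, and the replicates' signals ranked alike there, with Spearman's rho of 0.867 over the 53 members. Downstream it was 66 members, against 20.9%, with rho of 0.612, and inside the gene 59, against 48.3%, with rho of 0.249. For all protein-coding genes called in both, rho was 0.601, 0.550 and 0.512 in the order upstream, downstream and inside. These points are genes of the same 2 libraries, and the values are descriptions. In replicate 1 the members' median ranked signal was 48.0 downstream, 36.4 upstream and 35.9 inside, against 20.5, 20.4 and 24.8 over all protein-coding genes with a call. In replicate 2 it was 63.6, 46.4 and 30.2, against 21.4, 20.7 and 25.9.

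**Figure D4:**
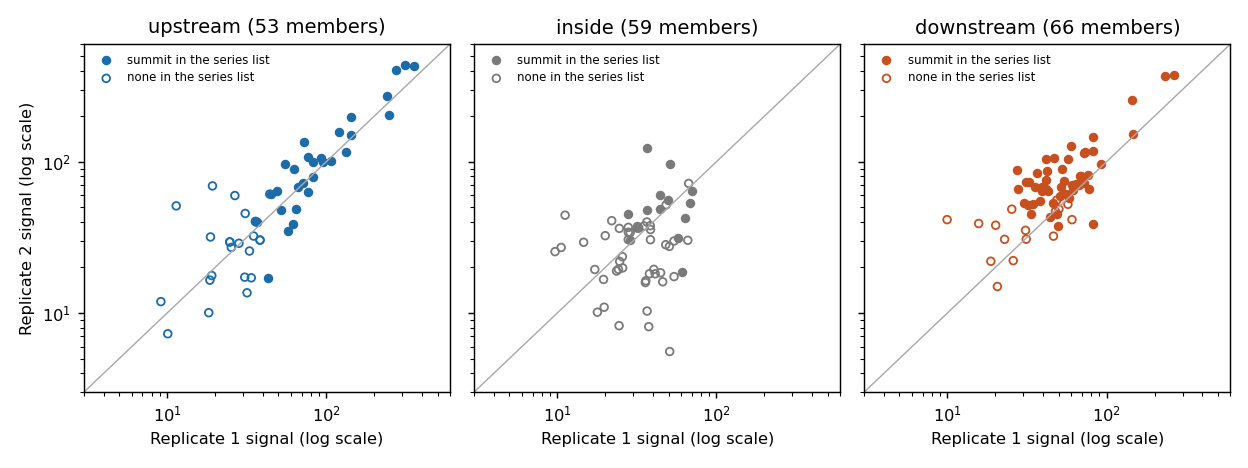
Signal of the highest call in a zone in replicate 1 (x axis) and replicate 2 (y axis), both on log scales, for members with a call in both ranked lists. Filled points have a summit in the series list; the line marks equal values and serves only for reading, as the 2 lists share no stated scale. The upstream points follow a line up to 358 and 430 at rpl-3, and the inside points form a cloud.

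No summit in any zone was found for 18 members, 13 of the large subunit and 5 of the small one, 4 of them snoRNA hosts. They were rpl-7, rpl-1, rps-10, rpl-24.1, rpl-25.2, rps-15, rpl-30, rla-0, rpl-42, rps-29, rpl-37, rps-3, rps-21, rpl-6, rpl-39, rpl-28, rpl-11.2 and rpl-25.1, and the last 2 are the only members on chromosome X. Calls were still present in the ranked lists, where 9 of the 18 had a downstream call in both replicates. The 10 with one in replicate 1 read from 9.96 to 50.2 with a median of 28.6, and the 14 with one in replicate 2 from 15.0 to 55.7 with a median of 31.3. Of the members with a summit in some zone, 60 had a downstream call in each ranked list, from 15.7 to 267 with a median of 50.2 in replicate 1 and from 16.9 to 376 with a median of 68.3 in replicate 2. The ranges overlapped in both replicates while the medians were lower for the 18, which were set apart by a list from the same libraries, so these values are a description. The pair rpl-11.1 and rpl-11.2 encode versions of a protein that joins the 5S RNA, and rpl-11.1 on chromosome V had a downstream summit of 163 in the series list, 77.5 in replicate 1 and 66.0 in replicate 2.

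Chromosome IV, which holds the piRNA gene clusters and 48.1% of the nuclear peaks, held 22.2% of the members. All 18 of them had a summit in some zone, against 20.5% of protein-coding genes there, 17 downstream, against 7.07%, and 13 upstream, against 7.56%. By the replicates' own lists 15 and 18 of them were called in some zone, against 12.3% and 15.5%, and 9 and 16 downstream, against 3.54% and 5.58%. Of the 15 members with a peak among the 500 highest (any zone, against 2.02% of all protein-coding genes) 10 were there. So were 205 of the 404 protein-coding genes with such a peak. The 10 were 55.6% of the members on chromosome IV, against 6.25% of protein-coding genes there. Downstream, 7 members had such a peak, all on chromosome IV, against 2.16% of protein-coding genes there. Elsewhere it was 0 of 63 members, against 0.318%. Median upstream signal was 264 for the 13 members on chromosome IV and 130 for the 18 elsewhere, against 143 and 116 for all protein-coding genes. Outside chromosome IV, 37 of 63 members had a downstream summit (58.7%, 45.6 to 71.0, against 2.47% of protein-coding genes there) and 18 an upstream one (28.6%, 17.9 to 41.3, against 2.41%). The replicates' own lists gave 13 and 28 of these 63 downstream (20.6% and 44.4%, against 1.19% and 1.53% of protein-coding genes there). Of the 5 members inside the clusters, rpl-20, rps-25, rpl-18, rpl-29 and rps-18, all had a downstream summit, with an exact interval from 47.8%, against 14.2% of the 941 protein-coding genes there. In replicate 1 it was 4 of the 5, against 7.01%.

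Other lists of the translation machinery were set beside the members. Of 70 genes for mitochondrial ribosomal proteins, 7 had an upstream summit (10%, 4.12 to 19.5) and 2 a downstream one (2.86%, 0.348 to 9.94). Of 6 genes for elongation factors, 4 had an upstream and 3 a downstream summit, with intervals of 22.3 to 95.7% and 11.8 to 88.2%. Among 25 genes for initiation factors the counts were 2 and 0 (up to 13.7%), among 31 for aminoacyl-tRNA synthetases 2 and 1, and among 18 for nucleolar ribosome biogenesis 2 and 1. Members are short genes. Of the 8382 protein-coding genes no longer than the longest member, 3.25% had an upstream, 2.35% an inside and 3.52% a downstream summit. In the downstream zone the members' interval lay above those of all these lists except the elongation factors.

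**Figure D5:**
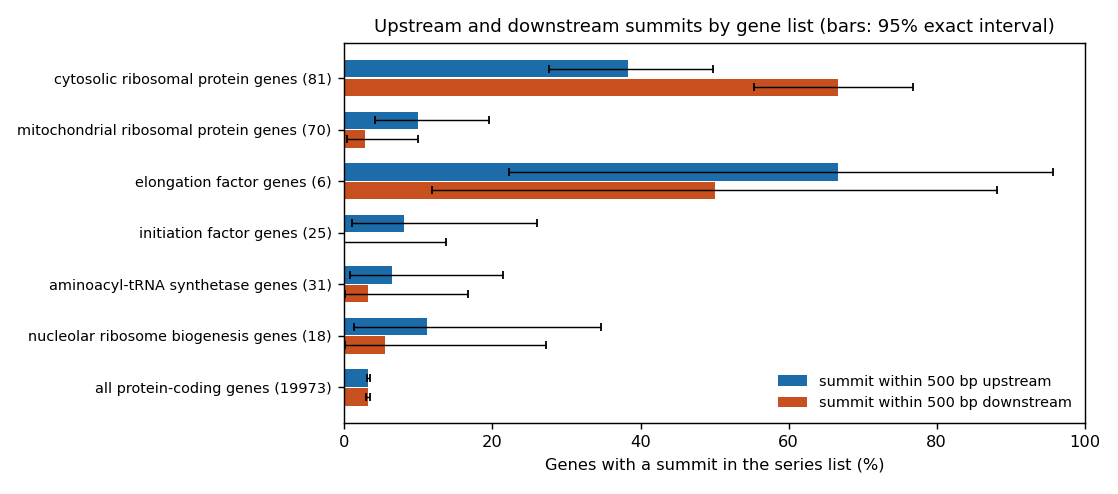
Percent of genes (x axis) with a summit of the series list within 500 bp before the 5' end and within 500 bp past the 3' end, for the members, 5 other lists and all protein-coding genes, with the number of genes in brackets. Error lines are exact 95% intervals; the downstream share of members, 66.7%, lies beside 2.86% of mitochondrial ribosomal protein genes and 3.22% of all.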

How the data were processed

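Peaks of 2 samples, biological replicates 1 and 2, were taken from 8 lists on ce11 deposited by the authors. Per the file headers and notes, peaks were called against a control and ranked by irreproducible discovery rate (IDR). Names of the peak caller and aligner were not given in the sources used here. Signal, as deposited, is the peak's value from the caller, with no stated scale. The deposited score grows with reproducibility and was 830 to 1000 in the series list. The ranked lists also hold the deposited −log10 of the global IDR, capped at 5. No read counts are in these lists, so depth is unknown.

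Summits (peak start plus offset) were set against Ensembl release 115 genes (WBcel235), with Python 3.11.15, numpy 2.4.6, pandas 2.3.3 and scipy 1.17.1. Figures used matplotlib 3.10.9. The main rule was a summit within 250 bp of the 5' end. Zones of 500 bp before the 5' end and past the 3' end, and the words marked in sequences, were added after the data were seen; in a zone the highest signal counts. Shares carry exact 95% intervals (Clopper-Pearson). Named by rule were members called at 250 bp in the series or in a replicate's list, the 10 highest signals inside or within 500 bp of the 5' end, and rla-0, rla-1 and rla-2; other names serve as examples of a count. Of the nucleolar list 2 names were not in the annotation. Members and lists were chosen with earlier results of these data known. Scripts were tested on simulated data. Mitochondrial peaks were left out.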

Additional observations from a re-analysis of the deposited data

How the results depend on the processing

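Of 76 alternative values, 43 stayed within 1.5 times the reported count or within 1 SD of the replicates' values, 33 moved and 0 changed sign. Members called within 250 bp of the 5' end were 12; they were 4, 37 and 56 in windows of 100, 500 and 1000 bp, 7 where the peak covered the 5' end base, 48 where it overlapped the gene, 1 with the 500 highest peaks and 7 at a global IDR of at most 0.001. Leaving out a replicate gave 6 to 8. The 500 highest peaks gave 1 large subunit, 0 small subunit and 1 snoRNA host gene within 250 bp, 0 members with a summit inside, 12 upstream, 7 downstream and 15 in any zone. Those peaks called 0.386% of all protein-coding genes within 250 bp, 0.801% inside, 0.706% upstream, 0.621% downstream and 2.02% in any zone. A window of 500 bp gave 21 large subunit, 16 small subunit and 5 snoRNA host genes. Leaving out a replicate gave 6 large subunit genes either way, 0 to 2 small subunit genes, 1 to 2 hosts, 9 to 10 members with a summit inside, 20 to 24 upstream, 22 to 44 downstream and 38 to 54 in any zone. Downstream, a global IDR of at most 0.001 gave 30 members, against 300 of all 19973 protein-coding genes. A zone of 250 bp gave 9 members upstream. The median position of the nearest summit was -106 and -154 bp with windows of 250 and 1000 bp, and -281 to -260 bp without a replicate. The upstream median was -176 bp in a zone of 250 bp and -287.5 to -276.5 bp without a replicate, and the downstream one 112.5 to 133.5 bp. The median signal at member peaks over that of the list, 1.14, was 1.19 without replicate 1 and 0.949 without replicate 2. It thus fell below 1 in replicate 1's own list. A ratio cannot change sign, so the count of sign changes does not cover this. The causes were not tested. An IDR limit of 0.01 removed no peak and says nothing of stability.

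No paired analysis was possible because there is 1 group. Depth, peak caller and control values limit what weak or missing calls can show, and 2 replicates give no test of a single gene.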
